A study of Homo sapiens with 19 samples.

Results

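FURIN and the proprotein convertases are 8 genes, FURIN, PCSK5, PCSK6, PCSK7, PCSK1, PCSK2, PCSK4 and MBTPS1, matched by symbol to Ensembl identifiers among the 44717 listed for any sample. The family was chosen on its measured values, the levels in both lines and the changes upon knockdown, which were already known from these data, so its values in the 4 knockdown comparisons are given as a description, without p-values. RNA-seq was performed on 19 samples in 7 groups. 501Mel cells, a human melanoma line, carried a lentiviral scramble shRNA labelled shSCR1 (n = 3), shBRG1 (n = 3), a scramble shRNA labelled shSCR2 (n = 2) or shMITF (n = 2). Hermes 3A cells, untransformed human melanocytes kept as a line, carried shSCR, shBRG1 or shMITF (n = 3 each). BRG1 is the ATPase of a chromatin remodelling complex and is encoded by SMARCA4, and MITF is the master transcription factor of melanocytes. One shRNA sequence was used for each target, and the sources used here do not say how shSCR1 and shSCR2 differ. The study's Hermes 3A medium held TPA, cholera toxin, stem cell factor and endothelin, which are not listed for 501Mel cells, so the cell line and its medium cannot be told apart.

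Proprotein convertases are subtilisin-like serine proteases that mature other proteins. FURIN, PCSK5, PCSK6 and PCSK7 act in the constitutive secretory pathway and at the cell surface, and cut after paired basic residues in growth factors, receptors, adhesion molecules and metalloproteases. PCSK1 and PCSK2 cut prohormones in the dense granules of neuroendocrine cells, PCSK4 acts in germ cells, and MBTPS1, the site-1 protease of the Golgi, cuts after non-basic residues and releases membrane-bound transcription factors such as the SREBPs. In pigment cells convertases are known for cutting PMEL, the scaffold protein of the melanosome.

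RefSeq (GRCh38.p14) gave 13 promoter windows for the 8 genes, each running from 250 bases before a transcription start to 50 bases after it. FURIN had 4 such windows, of which the first and second are printed because FURIN showed the change shared by all 4 comparisons. The first window of PCSK1, which differed most between the lines, and the window of PCSK7, the member with an E-box, are printed beside them. Capitals mark the motifs searched for: CACGTG and CATGTG (E-boxes bound by MITF), TGANTCA (bound by AP-1), TGACGTCA (the cAMP response element), GGGCGG (bound by SP1), each on both strands, and TATAAA on the strand of the gene. Overlapping matches to different motifs would share capitals.
FURIN window 1, chr15:90868338-90868637, plus strand: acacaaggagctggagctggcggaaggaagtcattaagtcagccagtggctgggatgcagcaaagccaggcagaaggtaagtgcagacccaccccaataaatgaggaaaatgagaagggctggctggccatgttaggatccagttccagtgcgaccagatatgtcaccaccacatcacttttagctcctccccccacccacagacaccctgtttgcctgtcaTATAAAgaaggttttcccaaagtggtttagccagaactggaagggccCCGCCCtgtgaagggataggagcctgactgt
FURIN window 2, chr15:90871290-90871589, plus strand: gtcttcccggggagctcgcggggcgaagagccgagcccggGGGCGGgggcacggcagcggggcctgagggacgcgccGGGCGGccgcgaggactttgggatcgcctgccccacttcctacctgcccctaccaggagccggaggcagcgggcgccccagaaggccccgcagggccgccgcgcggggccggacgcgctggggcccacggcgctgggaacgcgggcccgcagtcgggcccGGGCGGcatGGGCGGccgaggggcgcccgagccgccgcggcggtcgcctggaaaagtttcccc
PCSK1 window 1, chr5:96433199-96433498, minus strand: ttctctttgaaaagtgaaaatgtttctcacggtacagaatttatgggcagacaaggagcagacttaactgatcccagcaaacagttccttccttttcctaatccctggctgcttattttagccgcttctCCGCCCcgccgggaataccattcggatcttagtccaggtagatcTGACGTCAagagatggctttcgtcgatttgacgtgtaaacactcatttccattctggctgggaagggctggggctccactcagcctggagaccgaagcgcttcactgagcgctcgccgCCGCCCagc
PCSK7 window, chr11:117232024-117232323, minus strand: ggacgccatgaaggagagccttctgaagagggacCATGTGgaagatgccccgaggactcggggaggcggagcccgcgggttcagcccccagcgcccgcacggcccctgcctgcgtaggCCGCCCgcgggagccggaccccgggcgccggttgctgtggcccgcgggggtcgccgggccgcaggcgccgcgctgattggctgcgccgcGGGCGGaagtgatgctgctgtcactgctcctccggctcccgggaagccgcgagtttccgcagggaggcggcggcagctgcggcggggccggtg

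The FURIN windows differed in composition, since G and C made up 53.3% of the first and 80.3% of the second. Window 1 of FURIN held 1 TATAAA and 1 GGGCGG, and window 2 held 4 GGGCGG. Across all 35116 windows TATAAA stood in 7.33% and GGGCGG in 45.0%. None of the 4 FURIN windows held either E-box or the AP-1 motif. Among all windows 7.26% held CACGTG, 11.1% the other E-box and 7.71% the AP-1 motif. PCSK7 held 1 CATGTG, and PCSK1 held 1 TGACGTCA, a motif found in 1.85% of all windows. A match is a string of letters in the window, and binding of a factor was not measured here.

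The libraries held between 29158502 and 78857900 counts each. SMARCA4 had log2 fold changes with shBRG1 of -2.36 (SE 0.05) in 501Mel and -2.38 (SE 0.05) in Hermes 3A cells (edgeR, adjusted p = 3.7e-21 and 1.6e-24). Between the 501Mel controls SMARCA4 was higher with shSCR2 than with shSCR1 (log2 fold change 0.83, SE 0.06). MITF was at 1048 and 1186 CPM (counts scaled to the library size with TMM factors) with shSCR2 and at 494 and 546 CPM with shMITF. With shSCR1 it was at 513 to 609 CPM, so that the control of the shBRG1 libraries had little more MITF mRNA than the shMITF libraries of the same line. In the melanocyte line MITF was at 1014 to 1119 CPM with shSCR and at 456 to 719 CPM with shMITF, where its log2 fold change of -0.85 (SE 0.19) stayed within the limit of 1. Marker levels, unlike the other CPM, were scaled to total counts without TMM factors. Those factors were 1.255 to 1.27 with shBRG1 in 501Mel cells and 0.86 to 0.87 with shSCR in Hermes 3A cells. All 7 melanocyte markers reached 1 CPM in every group, whereas their summed level was 30590 to 32250 CPM with shSCR1 and 3891 to 4310 CPM with shBRG1, and 20060 to 21650 CPM with shSCR2 and 11980 to 12160 CPM with shMITF. The same sum in Hermes 3A cells was 54700 to 55760 CPM with shSCR, 28860 to 29700 CPM with shBRG1 and 24230 to 30950 CPM with shMITF. Summed fibroblast markers were at 3.70 to 5.17 CPM with shSCR1 and 20.1 to 24.1 CPM with shBRG1, and at 61.6 to 69.8 CPM with shSCR in Hermes 3A cells, 129.6 to 140.9 CPM with shBRG1 and 101 to 204 CPM with shMITF. The 4 neuroendocrine markers, of cells known for PCSK1 and PCSK2, summed to 43.5 to 53.7 CPM with shSCR1, 16.1 to 17.2 with shBRG1, 29.5 to 30.1 with shSCR2 and 11.3 to 12.5 with shMITF, and in Hermes 3A cells to 5.56 to 6.74 with shSCR, 11.5 to 12.2 with shBRG1 and 2.63 to 5.35 with shMITF, and 1 or 2 of them reached 1 CPM in each group, while NEUROD1 was at 0 in every group except 501Mel shBRG1. Keratinocyte markers summed to 27.9 to 29.7 CPM with shSCR in Hermes 3A cells and to 40.4 to 57.5 CPM with shMITF, with 1 of 4 at 1 CPM in every group. Leukocyte markers summed to at most 2.10 CPM in any library. The part of these markers in the convertase values was not tested.

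FURIN, the prototype of the family, was higher in every knockdown group than in its scramble control. The gene lies at chr15:90868592-90883458 (GRCh38, plus strand). With shSCR1 FURIN was at 31.8, 31.6 and 29.7 CPM, and with shBRG1 at 156.6, 164 and 151 CPM. The lowest shBRG1 library thus lay far above every control, and the log2 fold change was 2.27 (SE 0.05), a 4.84-fold difference. With shSCR2 the libraries were at 67.1 and 58.1 CPM and with shMITF at 139.9 and 119.9 CPM, a log2 fold change of 1.09 (SE 0.14). These groups did not overlap either, but the change lay close to the limit of 1 and fell to 0.97 without shSCR2 replicate 2 and to 0.99 without shMITF replicate 1.

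Hermes 3A cells started from a higher FURIN level. With shSCR the libraries were at 139.8, 148 and 126 CPM, 4.44-fold over shSCR1 and 2.20-fold over shSCR2 in the mean. With shBRG1 they were at 606, 597 and 604 CPM, a log2 fold change of 2.14 (SE 0.05), and with shMITF at 391.7, 378 and 480 CPM, a log2 fold change of 1.62 (SE 0.15). Both comparisons share the shSCR libraries. In the order of the 7 groups by mean FURIN level, Hermes 3A shBRG1 came first at 602 ± 4.45 CPM (SD), followed by Hermes 3A shMITF at 416.5 ± 55.6, 501Mel shBRG1 at 157 ± 6.85, Hermes 3A shSCR at 138 ± 11.4, 501Mel shMITF at 129.9 ± 14.1, shSCR2 at 62.6 ± 6.31 and shSCR1 at 31.0 ± 1.16 CPM. Hermes 3A shSCR and 501Mel shMITF were the neighbours in this order whose libraries overlapped, and their difference was not tested. With library sizes in place of TMM these 2 stood in the reverse order, at means of 119.5 and 135.6 CPM. Those of shSCR1 and shSCR2 were then 32.2 and 59.6 CPM. In bulk RNA a change in the share of cells that express a gene and a change in the RNA per cell cannot be told apart.

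**Figure D1:**
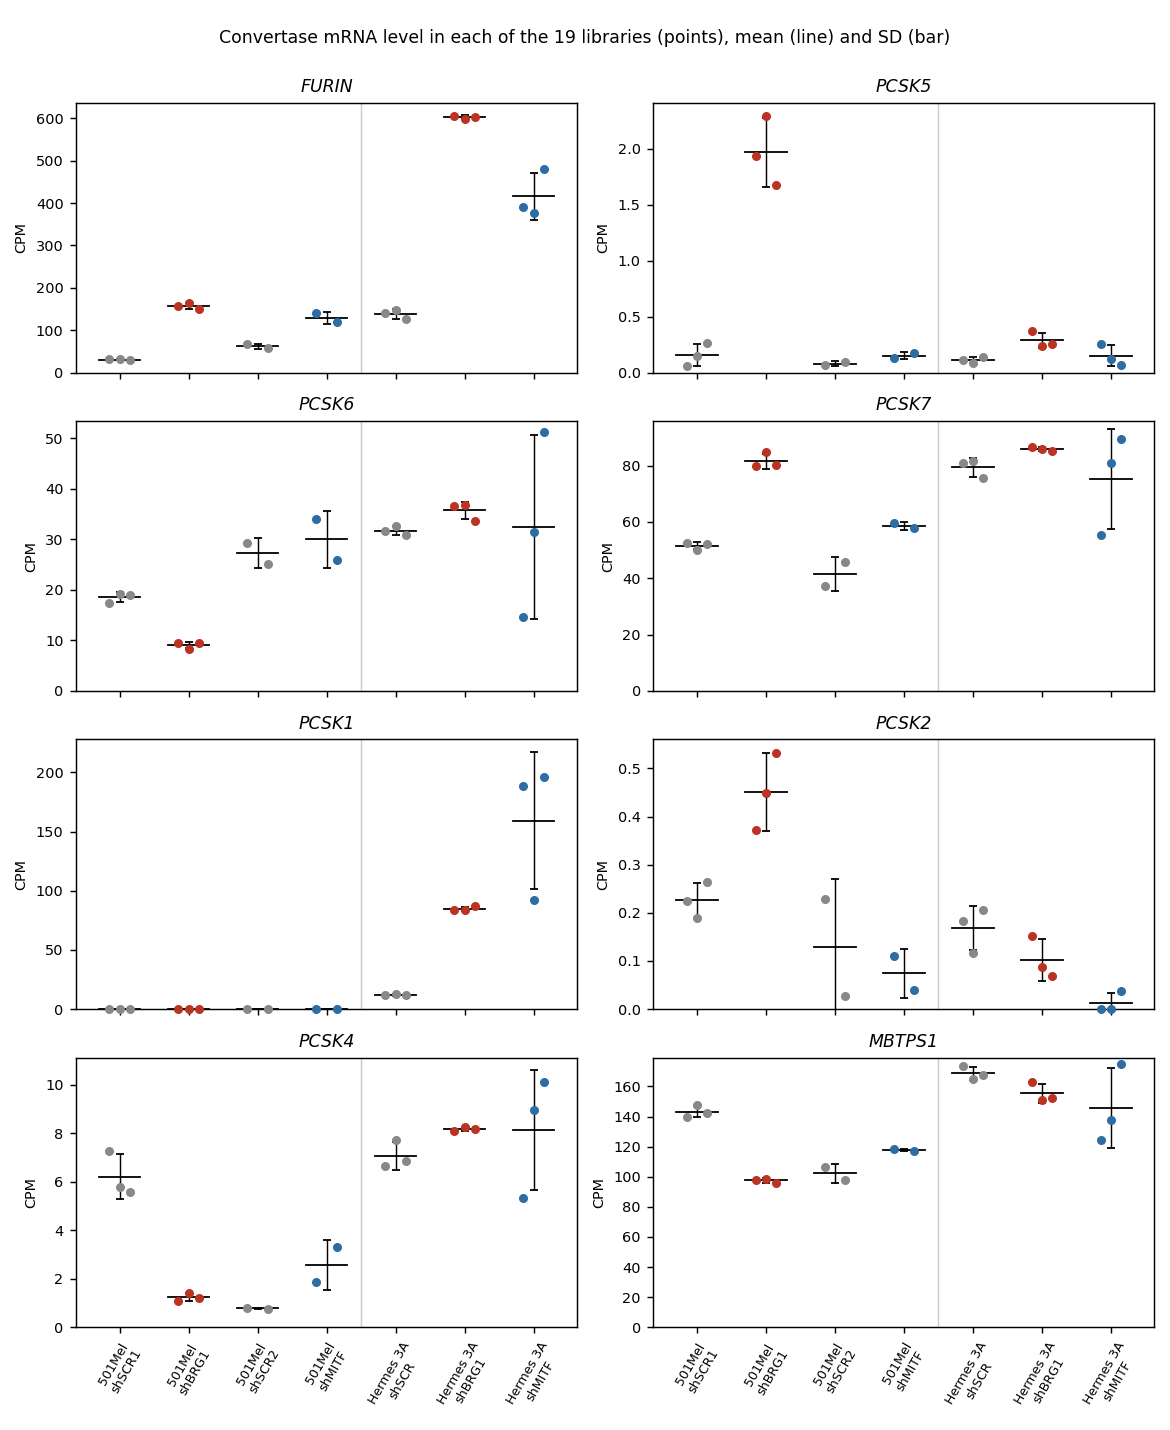
CPM (TMM-normalised over all 19 libraries, linear axes from 0) of each convertase in each library. Points are libraries, grey for scramble, red for shBRG1 and blue for shMITF, black lines are means and bars SD, clipped at 0. FURIN was higher in each knockdown group than in its own control, from 31.0 to 157 CPM at the lower end and from 138 to 602 CPM at the upper end, and PCSK1 was at or near 0 in all 501Mel libraries.

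PCSK5, a constitutive convertase that processes growth factors of the TGF-beta family, was close to absent except with shBRG1 in 501Mel cells. It had 3 to 9 counts per library with shSCR1 and 85 to 133 with shBRG1. These correspond to 0.0614, 0.152 and 0.263 CPM against 1.93, 2.29 and 1.68 CPM, a log2 fold change of 3.65 (SE 0.29). PCSK5 was the member with the largest fitted change in that comparison, from a level near the detection limit. Melanocytes had 3 to 6 counts of PCSK5 per library with shSCR and 11 to 17 with shBRG1. That log2 fold change of 1.31 (SE 0.53) passed the call limits in the main test and lost the call with DESeq2, without the count filter, in the fit of all groups of the line and in 5 of the 6 fits that left out 1 library. In both shMITF comparisons PCSK5 had at most 9 counts per library and did not pass the count filter.

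PCSK6, which cuts NODAL and other TGF-beta family precursors in the extracellular matrix, differed in direction from FURIN in the melanoma line. With shSCR1 it was at 17.5, 19.2 and 19.1 CPM and with shBRG1 at 9.41, 8.33 and 9.40 CPM. All shBRG1 libraries lay below all controls, with a log2 fold change of -1.10 (SE 0.07). The size of this decrease depended on the scaling, and it was -0.75 when library sizes replaced TMM, and -0.98 when 10 counts were required in every library, both within the limit of 1. Hermes 3A cells had PCSK6 at 30.9 to 32.7 CPM with shSCR and 33.7 to 36.9 CPM with shBRG1, a log2 fold change of 0.18 (SE 0.06) in the opposite direction.

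The shMITF libraries varied more for PCSK6. For Hermes 3A cells they were at 14.7, 31.4 and 51.2 CPM, on both sides of the controls, and the log2 fold change of 0.05 (SE 0.36) ran from -0.43 to 0.39 when single libraries were left out. In 501Mel cells shSCR2 gave 29.4 and 25.2 CPM and shMITF 34.1 and 26.0 CPM, with overlapping groups. GENCODE release 29 places an antisense transcript, AC023024.1, over 1428 exonic bases of PCSK6. A transcript on the same strand, AC023024.2, overlaps PCSK6 by 1214 exonic bases and was not among the counted identifiers. The sources used here do not give the strand setting of the counting, so reads of these genes cannot be told apart.

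PCSK7, a widely expressed member of the constitutive pathway, was at 52.7, 50.1 and 52.0 CPM with shSCR1 and at 79.9, 84.7 and 80.2 CPM with shBRG1. The groups were clear of each other, with a log2 fold change of 0.60 (SE 0.05), within the limit of 1. With shSCR2 PCSK7 was at 37.3 and 45.8 CPM and with shMITF at 59.5 and 57.7 CPM, a log2 fold change of 0.53 (SE 0.14). Melanocyte levels were steadier, at 75.5 to 81.8 CPM with shSCR and 85.1 to 86.5 CPM with shBRG1 (log2 fold change 0.13, SE 0.04). The shMITF libraries of that line ran from 55.4 to 89.4 CPM around the controls, and the sign of the log2 fold change, -0.05 with TMM (SE 0.18), became positive, 0.05, with library sizes.

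The last exons of PCSK7 (chr11:117204337-117232525, minus strand) overlap those of TAGLN, which encodes the actin-binding protein transgelin on the plus strand, by 446 bases. TAGLN rose from 5.93 to 7.29 CPM with shSCR1 to 26.5 to 30.6 CPM with shBRG1 (log2 fold change 2.06, SE 0.08, adjusted p = 7.9e-17) and from 1.04 to 1.47 CPM with shSCR2 to 5.03 to 5.52 CPM with shMITF (log2 fold change 2.13, SE 0.33, adjusted p = 0.0031). TAGLN had log2 fold changes of 0.55 (SE 0.13) with shBRG1 and 0.98 (SE 0.25) with shMITF in Hermes 3A cells. Between the controls TAGLN was lower with shSCR2 than with shSCR1 (log2 fold change -2.40, SE 0.21), so that the shMITF libraries lay above shSCR2 and below shSCR1. PCSK7 and TAGLN were thus both higher in each 501Mel knockdown than in its own control, and the part of TAGLN reads in the PCSK7 values was not tested.

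**Figure D2:**
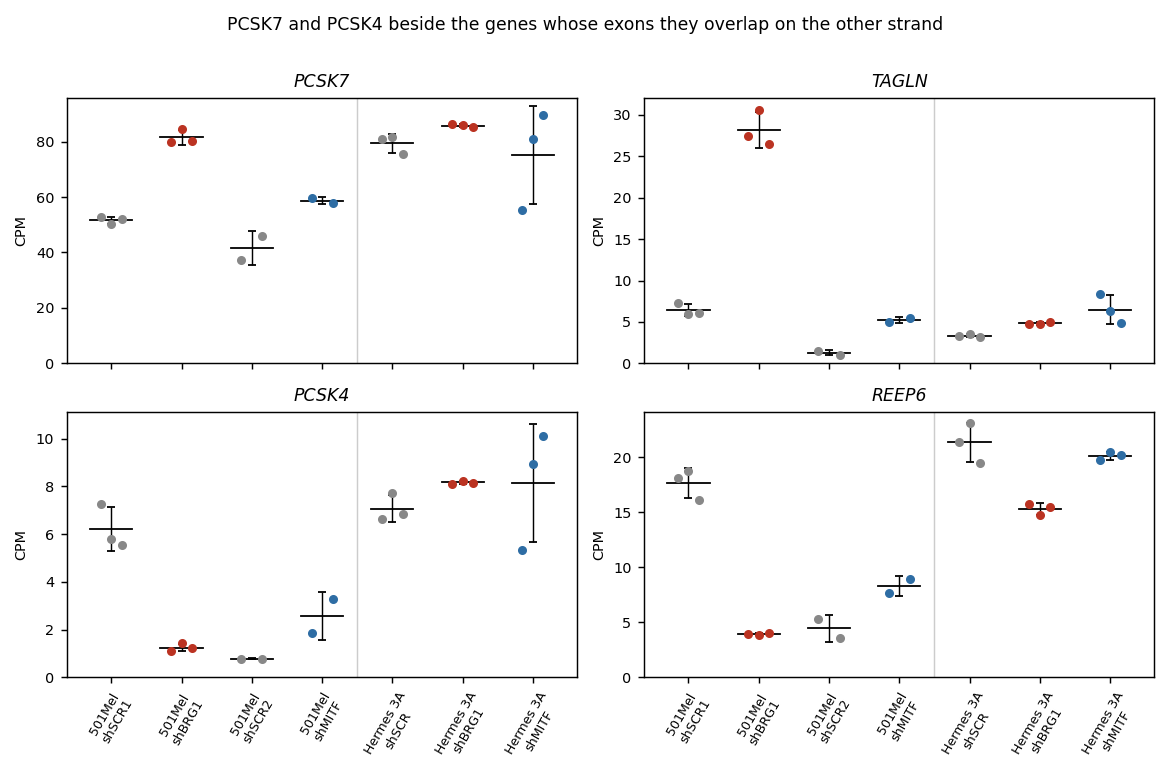
CPM of PCSK7 and PCSK4 in each library beside TAGLN and REEP6, protein-coding genes on the opposite strand whose exons overlap theirs by 446 and 6 bases. Points are libraries, black lines means and bars SD, on linear axes from 0. Within 501Mel cells PCSK4 and REEP6 were both highest with shSCR1, and in Hermes 3A cells PCSK7 stayed between 55.4 and 89.4 CPM in every library.

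PCSK1, the prohormone convertase of regulated secretion, separated the lines. In 501Mel cells it had 0 to 6 counts per library in all 10 libraries. With shSCR2 it had 0 counts in both libraries, which allows at most 0.0948 and 0.0380 CPM (3 counts, counting error only, without TMM factors). In Hermes 3A cells PCSK1 was at 11.7, 12.5 and 11.6 CPM with shSCR and at 83.7, 83.4 and 86.7 CPM with shBRG1. These libraries agreed closely within each group, and the log2 fold change was 2.84 (SE 0.06), a 7.16-fold difference. With shMITF PCSK1 was at 188, 92.3 and 197 CPM, a log2 fold change of 3.76 (SE 0.28). The shMITF libraries were thus the highest of all 19, replicate 2 lying nearest to the shBRG1 level.

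PCSK1 was the member with the largest change in Hermes 3A cells in both comparisons, which share their controls. It was also the only member called in 1 line and below the count filter throughout the other. PCSK2, the other prohormone convertase, was near the detection limit in both lines. It had 9 to 11 counts per library with shSCR1 and 22 to 27 with shBRG1 (log2 fold change 0.94, SE 0.32), which was not called. The call limits were passed with library sizes (1.29), without shSCR1 replicate 3 (1.02) and without shBRG1 replicate 1 (1.07), and with the scramble groups pooled the value was 1.30, not called. In all Hermes 3A libraries PCSK2 had at most 9 counts, and 2 of the 3 shMITF libraries had none, which allows at most 0.0759 and 0.0956 CPM (without TMM factors).

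PCSK4, the germ cell convertase, had a larger log2 difference between the scramble controls of 501Mel cells than upon either knockdown. It was at 7.27, 5.80 and 5.56 CPM with shSCR1 and at 0.784 and 0.763 CPM with shSCR2. With shBRG1 it was at 1.10, 1.42 and 1.20 CPM, a log2 fold change of -2.39 (SE 0.14) against shSCR1. With shMITF it was at 1.85 and 3.29 CPM, a log2 fold change of 1.78 (SE 0.41) against shSCR2. These opposite directions depended on the control used. With both scramble groups pooled the log2 fold changes were -1.72 (SE 0.79) for shBRG1 and -0.61 (SE 0.95) for shMITF, neither called. Without shSCR2 replicate 2 or without shMITF replicate 2 the latter difference also lost the call, at 1.74 and 1.27.

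PCSK4 changed little in Hermes 3A cells. It was at 6.64 to 7.73 CPM with shSCR, 8.10 to 8.25 CPM with shBRG1 (log2 fold change 0.22, SE 0.10) and 5.35 to 10.1 CPM with shMITF (log2 fold change 0.23, SE 0.25). The start of PCSK4 (chr19:1481428-1490752, minus strand) overlaps by 6 exonic bases that of REEP6, which encodes a membrane-shaping protein of the endoplasmic reticulum. REEP6 moved alongside PCSK4 in the melanoma line, with log2 fold changes of -2.24 (SE 0.08, adjusted p = 2.2e-17) for shBRG1, 0.96 (SE 0.29) for shMITF and -2.02 (SE 0.18) for shSCR2 against shSCR1. In Hermes 3A cells REEP6 had log2 fold changes of -0.47 (SE 0.07) with shBRG1, opposite in sign to PCSK4, and -0.06 (SE 0.13) with shMITF. The part of REEP6 reads in the PCSK4 values was not tested.

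MBTPS1, the site-1 protease, had the narrowest range of group means among the members relative to its level. It was at 140.0, 147.5 and 142 CPM with shSCR1 and at 98.1, 98.8 and 95.7 CPM with shBRG1. The groups were apart, with a log2 fold change of -0.62 (SE 0.05), which was -0.27 with library sizes. With shSCR2 it was at 107 and 97.6 CPM and with shMITF at 118 and 117 CPM (log2 fold change 0.24, SE 0.12, and -0.08 with the scramble groups pooled). Melanocytes had MBTPS1 at 165 to 174 CPM with shSCR, 151 to 163 CPM with shBRG1 and 124 to 175 CPM with shMITF. The log2 fold changes of -0.10 (SE 0.04) and -0.19 (SE 0.15) were small, and the first vanished with library sizes. Over all 7 groups the mean of MBTPS1 stayed between 97.6 and 169 CPM.

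The call limits were an adjusted p under 0.05 (edgeR, Benjamini-Hochberg) together with a log2 fold change beyond 1 in either direction. With shBRG1 in 501Mel cells 7 of the 8 members passed the count filter, of which FURIN and PCSK5 were called higher and PCSK6 and PCSK4 lower, against 39.1% of all genes tested called in either direction, 21.7% higher and 17.4% lower. With shMITF in 501Mel cells 5 members passed the filter and FURIN and PCSK4 were called higher, against 8.99% of all genes called in either direction, 5.59% higher and 3.40% lower. With shBRG1 in Hermes 3A cells 7 members passed and FURIN, PCSK5 and PCSK1 were called higher, against 9.26% of all genes called in either direction, 5.78% higher and 3.47% lower. With shMITF in Hermes 3A cells 6 members passed and FURIN and PCSK1 were called higher, against 7.39% of all genes called in either direction, 3.35% higher and 4.04% lower. FURIN was thus called in all 4 comparisons, while PCSK7 and MBTPS1 were called in none. As the members were chosen with these comparisons known, nothing is read from these counts against the background. For a member a call, kept or lost, only marks where its value lay against these limits and is no test of it. Replicates of the shMITF and shSCR2 groups spread more than those of the other groups, so the shares called do not compare the size of effects. Whether any member's change differed between the lines was not tested.

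**Figure D3:**
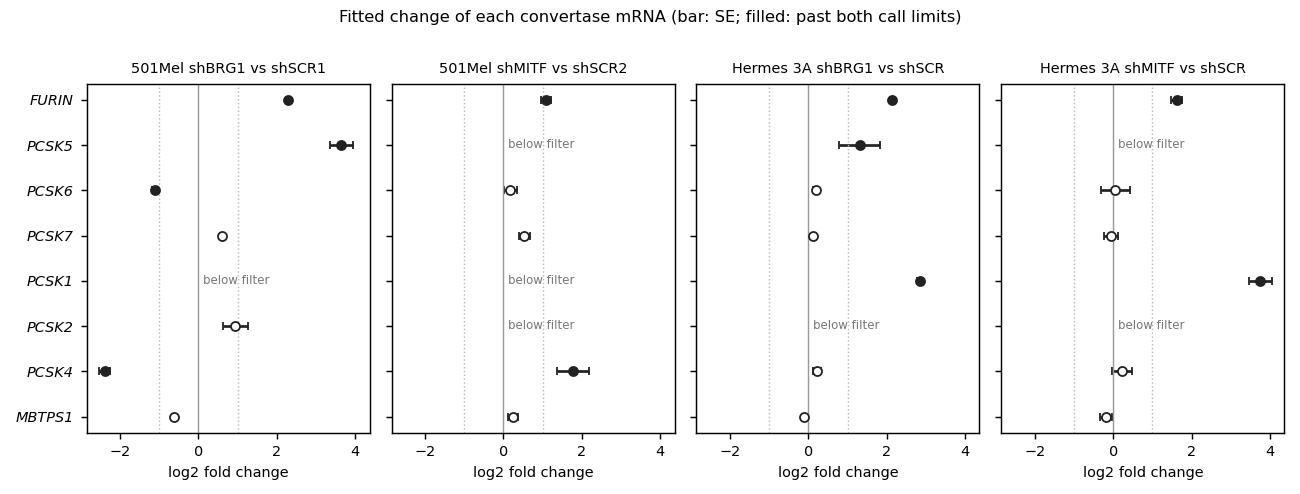
Fitted log2 fold change of each convertase mRNA in the 4 knockdown comparisons. Circles are edgeR estimates, bars SE (worked back from the F test), filled circles lie past both call limits and dotted lines mark a log2 fold change of 1 in either direction. FURIN lay between 1.09 and 2.27 in all 4 panels, and PCSK6 and PCSK4 lay below -1 with shBRG1 in 501Mel cells.

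Levels of different genes were compared as CPM per kilobase of exon. Among the 7 convertases that cut at basic residues, FURIN accounted for 54.8% ± 0.94 (SD, n = 3) of the summed level with shSCR1 and 87.1% ± 0.30 (n = 3) with shBRG1. With shSCR2 the share was 76.1% ± 1.94 (n = 2) and with shMITF 83.0% ± 0.97 (n = 2). Control melanocytes had a FURIN share of 74.2% ± 0.92 and those with shBRG1 83.8% ± 0.10. With shMITF it was 70.3% ± 4.64, where PCSK1 added 29.98 CPM per kilobase to the 88.1 of FURIN. With the union of exons as the length FURIN was the most abundant basic-residue convertase in every group, and its share was larger in the knockdown than in the control except with shMITF in Hermes 3A cells. These shares depended on the length used. With the longest transcript of each gene in place of the union of exons they were 37.3% ± 0.84 with shSCR1, 75.8% ± 0.54 with shBRG1, 56.8% ± 2.35 with shSCR2 and 68.0% ± 0.69 with shMITF in 501Mel cells. In Hermes 3A cells they were then 60.7% ± 1.14 with shSCR, 79.0% ± 0.14 with shBRG1 and 66.3% ± 3.42 with shMITF, which turns the exception around and makes Hermes 3A shBRG1 the group with the highest share.

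The summed level of the 7 genes was higher in each knockdown group than in its control. It was 12.0 ± 0.39 CPM per kilobase with shSCR1 and 38.2 ± 1.56 with shBRG1, and 17.4 ± 1.31 with shSCR2 and 33.1 ± 3.21 with shMITF. For Hermes 3A cells it was 39.3 ± 2.79 with shSCR, 152 ± 1.04 with shBRG1 and 126 ± 21.9 with shMITF. The sums of the 501Mel knockdown groups, 33.1 and 38.2, thus lay nearer to the 39.3 of control melanocytes than to those of their own controls.

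**Figure D4:**
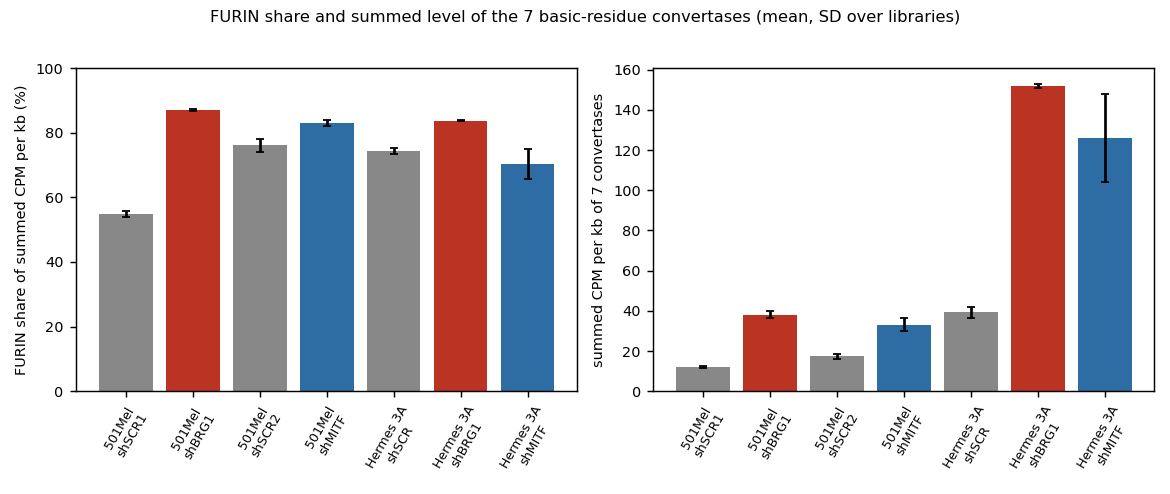
Left, share of FURIN in the summed CPM per kilobase (union of exons) of the 7 convertases that cut at basic residues, and right, that sum, by group. Bars are means over 2 or 3 libraries and error bars SD, on axes from 0. With this length the share was lowest with shSCR1 at 54.8% and highest with shBRG1 in 501Mel cells at 87.1%, and the sum was highest with shBRG1 in Hermes 3A cells at 152 CPM per kilobase.

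The scramble controls of 501Mel cells differed from each other, and so did the convertases in them. FURIN was 2.03-fold higher with shSCR2 than with shSCR1 (log2 fold change 1.02, SE 0.09), a difference about as large as that between shMITF and shSCR2. PCSK4 was lower by 3.00 on the log2 scale (SE 0.21), MBTPS1 by 0.48 (SE 0.07) and PCSK7 by 0.30 (SE 0.09), while PCSK6 was higher by 0.56 (SE 0.10). PCSK2, with 2 to 11 counts per library in these groups, had a log2 fold change of -1.23 (SE 0.73), not called, which was -2.88 and called without shSCR2 replicate 1 and 0.06 without shSCR2 replicate 2. Of the 6 members that passed the count filter, FURIN was called higher and PCSK4 lower, against 33.0% of all genes called in either direction between these controls, 12.3% higher and 20.7% lower. The FURIN call was lost with library sizes (0.89), with 10 counts required in every library (0.92) and without shSCR1 replicate 3 (0.98) or shSCR2 replicate 1 (0.95). With the scramble groups pooled as the control the FURIN log2 fold change was 1.82 for shBRG1, still called, and 1.60 (SE 0.35) for shMITF, no longer called. Each FURIN value of the shBRG1 and shMITF groups lay above all 5 scramble libraries of the line.

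Genes of the convertase pathway were counted in 6 lists and tested with edgeR. Over all genes tested the median log2 fold change was 0.05 with shBRG1 and 0.01 with shMITF in 501Mel cells, and 0.01 and 0.05 in Hermes 3A cells. Among all genes tested, 21.7% were called higher and 17.4% lower with shBRG1 in 501Mel cells, 5.59% and 3.40% with shMITF, 5.78% and 3.47% with shBRG1 in Hermes 3A cells, and 3.35% and 4.04% with shMITF. Between the scramble controls 12.3% of all genes tested were called higher and 20.7% lower with shSCR2 than with shSCR1. Of 9 modulators tested 1 was called higher and 1 lower in that contrast, and of 13 growth factor precursors 3 and 4. The numbers were 1 and 4 of 14 metalloprotease precursors, 2 and 1 of 6 prohormones and 1 and 3 of 14 genes of the site-1 protease pathway. Of the 10 modulators and partner enzymes of convertases, 2 of 9 tested rose and 2 fell with shBRG1 in 501Mel cells (median -0.12), and 2 of 8 tested rose with shMITF (median 0.50). GBP2, a guanylate-binding protein that inhibits FURIN, rose with shBRG1 by 3.22 on the log2 scale (SE 0.17), and PCSK1N, the inhibitor of PCSK1, fell by 1.30 (SE 0.05). PCSK1N was also lower with shSCR2 than with shSCR1 (log2 fold change -2.92, SE 0.09). Its shBRG1 mean of 25.2 CPM lay between the 59.1 of shSCR1 and the 7.71 of shSCR2. PAM, which amidates the peptides that convertases release, rose with shMITF by 1.54 (SE 0.35). Of these genes 1 of 9 tested rose with shBRG1 in Hermes 3A cells (median 0.25) and 0 of 8 tested were called with shMITF by edgeR (median 0.11), where 2 had an unadjusted p under 0.05 and DESeq2 called 1 higher. Those 2, PACS1 (log2 fold change 0.99, SE 0.12) and PCSK1N, had edgeR adjusted p-values of 0.00161 and 0.0415 and missed only the limit of 1. In Hermes 3A cells PCSK1N, at 18.1 CPM with shSCR, had log2 fold changes of 0.10 (SE 0.08) with shBRG1 and -0.88 (SE 0.25) with shMITF, neither called, beside the higher PCSK1.

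Among 20 growth factor precursors that convertases cut, 7 of 16 tested rose and 1 fell with shBRG1 in 501Mel cells (median 0.85) and 6 of 14 tested rose and 2 fell with shMITF (median 0.62). The melanocyte comparisons gave, of 16 tested in each, 6 that rose and 1 that fell with shBRG1 (median 0.26) and 7 rose and 1 fell with shMITF (median 0.98). PDGFB, a FURIN substrate and mitogen, rose by 4.61 (SE 0.11) and 6.06 (SE 1.03) in the 501Mel comparisons, while TGFB2 fell by 1.90 (SE 0.10) and fell by 4.87 (SE 0.41). INHBA, the activin A subunit, rose by 3.38 (SE 0.08) with shBRG1 and ANGPTL4, a lipase inhibitor, by 5.48 (SE 0.54) with shMITF in Hermes 3A cells. GDF15, a stress cytokine, fell by 1.41 (SE 0.07) with shBRG1 and fell by 4.63 (SE 0.26) with shMITF in that line.

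Of 17 receptor and adhesion precursors 1 of 16 tested rose and 8 fell with shBRG1 in 501Mel cells (median -0.87). Between shSCR2 and shSCR1, without a knockdown, 1 of 15 tested was higher and 6 were lower (median -0.73). With shMITF 1 of 15 tested rose and 1 fell in 501Mel cells (median -0.16), and of 17 tested in Hermes 3A cells 1 rose with shBRG1 (median 0.13) and 1 rose and 3 fell with shMITF (median -0.36). LRP1, an endocytic receptor, fell by 3.26 (SE 0.06) with shBRG1 in 501Mel cells, and was also lower with shSCR2 than with shSCR1 (log2 fold change -2.445, SE 0.31). With shMITF ITGA3, an integrin chain, rose by 1.79 (SE 0.33) against shSCR2, a call that was lost and reversed to -0.31 with the scramble groups pooled, and MET, the receptor of HGF, fell by 1.29 (SE 0.13). In the melanocytes NOTCH3 rose by 1.18 (SE 0.09) with shBRG1, and with shMITF CDH2 rose by 1.45 (SE 0.21) and CDH1 fell by 2.97 (SE 0.63). Of 15 metalloprotease precursors, all tested, 3 rose and 6 fell with shBRG1 in 501Mel cells (median -0.83), and 2 rose in each other knockdown comparison, of 14 tested with shMITF in each line and 15 with shBRG1 in Hermes 3A cells (medians 0.05, -0.13 and 0.40). ADAM19, which FURIN activates, rose by 3.55 (SE 0.11) with shBRG1 and 3.41 (SE 0.47) with shMITF in 501Mel cells, and ADAM12 fell by 3.76 (SE 0.09) with shBRG1. Both genes were lower with shSCR2 than with shSCR1, with log2 fold changes of -2.24 (SE 0.36) for ADAM19 and -2.06 (SE 0.12) for ADAM12. ADAMTS5 rose by 2.10 (SE 0.16) with shBRG1 and MMP17 by 1.23 (SE 0.18) with shMITF in Hermes 3A cells.

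Of the 14 prohormones and granins that PCSK1 and PCSK2 cut, at most 7 passed the count filter. In 501Mel cells 1 of 7 tested rose and 4 fell with shBRG1 (median -1.10) and 3 of 6 tested fell with shMITF (median -1.995). CCK, the cholecystokinin precursor, rose by 5.34 (SE 0.19) and VGF, a granin, fell by 1.99 (SE 0.05) with shBRG1, and NTS, the neurotensin precursor, fell by 2.78 (SE 0.70) with shMITF. With PCSK1 high in Hermes 3A cells, 0 of 6 tested were called with shBRG1 by edgeR (median 0.01), 0 by DESeq2, and 3 had an unadjusted p under 0.05. These 3 were PENK, the enkephalin precursor (log2 fold change -0.85, SE 0.05), CHGB (0.83, SE 0.22) and SCG2 (-0.78, SE 0.25). Their edgeR adjusted p-values of 1.58e-14, 0.0018 and 0.00775 were also under 0.05, and only the limit of 1 was missed. With shMITF 2 of 6 tested fell (median -0.61), among them PENK by 1.94 (SE 0.46). Of 15 genes of the site-1 protease pathway 1 of 14 tested rose and 8 fell with shBRG1 in 501Mel cells (median -1.09), where INSIG1, the sterol-dependent retention factor of the SREBPs, fell by 2.12 (SE 0.05) and CREB3, a substrate, rose by 1.08 (SE 0.05). With shMITF in 501Mel cells 0 of 14 tested were called by edgeR (median -0.20), 0 by DESeq2, and 9 had an unadjusted p under 0.05. Among them 1 of 14 tested rose and 1 fell with shBRG1 in Hermes 3A cells (median -0.06) and 2 of 15 tested rose and 1 fell with shMITF (median -0.13). CREB3L2, another substrate, rose there by 1.32 (SE 0.04) and 1.31 (SE 0.11), INSIG1 fell by 1.11 (SE 0.06) with shBRG1, and SREBF2 fell by 1.39 (SE 0.26) with shMITF.

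Several of these calls depended on the control or on single libraries. With both 501Mel scramble groups pooled, the calls of PCSK1N and VGF with shBRG1 and of PAM, PDGFB, ITGA3, ADAM19 and NTS with shMITF were lost. For shSCR2 against shSCR1 the log2 fold changes were -4.235 (SE 0.53) for PDGFB, -1.71 (SE 0.54) for VGF and -2.70 (SE 0.18) for ITGA3. Those of NTS and PAM were 2.04 (SE 0.44) and -0.98 (SE 0.27), the last not called. Without shMITF replicate 2 the 501Mel log2 fold changes of PAM (1.22, adjusted p = 0.11) and NTS (-2.09, adjusted p = 0.058) were not called, and neither was PDGFB, near 0 with shSCR2, without shSCR2 replicate 2 (9.77, SE 2.35, adjusted p = 0.058). With shMITF in Hermes 3A cells the calls of CDH1 and PENK were lost without any 1 of the shSCR replicates, at adjusted p-values of 0.062 to 0.11 and 0.084 to 0.13, that of PENK also without shMITF replicate 3, and that of SREBF2 without shSCR replicate 2 (adjusted p = 0.051).

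**Figure D5:**
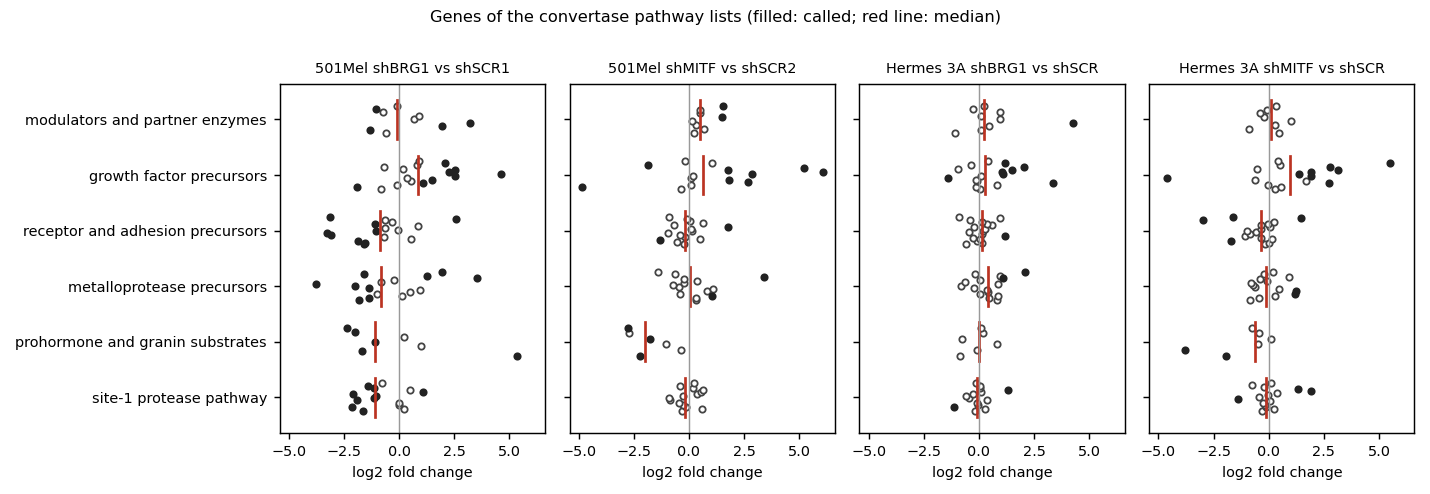
Log2 fold changes of the tested genes of the 6 convertase pathway lists in the 4 knockdown comparisons. Circles are genes, filled where called, and red lines are list medians. Growth factor precursors had medians of 0.26 to 0.98, and the site-1 protease pathway had a median of -1.09 with shBRG1 in 501Mel cells.

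Across the 19 libraries the levels on the log2(CPM + 1) scale were compared between genes by Pearson's r over 13965 genes, as a description, since the libraries fall into 7 groups and 2 lines that set most of the spread. The genes most like FURIN were RTN4 (0.97), LRP5 (0.96) and GNA11 (0.96). Those most like PCSK1 were SPINT1 (0.99), GSAP (0.99) and PTHLH (0.99). SPINT1 encodes an inhibitor of serine proteases, and PTHLH, a hormone precursor of the growth factor list that convertases cut, rose in Hermes 3A cells by 2.04 (SE 0.15) with shBRG1 and 2.76 (SE 0.27) with shMITF. PCSK6 was most like MYO9A (0.97), PCSK7 like IL17RA (0.94), PCSK4 like IDUA (0.97) and MBTPS1 like ALAD (0.97). Between members r was highest for PCSK4 and MBTPS1 (0.92) and for FURIN and PCSK1 (0.83), and lowest for PCSK6 and PCSK7 (0.10).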

How the data were processed

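RNA-seq was performed on 501Mel and Hermes 3A cells infected with shRNA vectors (19 samples). The values deposited by the authors were the raw number of reads on each Ensembl gene in each sample (counts), not normalised. The number of Ensembl identifiers given was not the same in all groups. It was 34033 for Hermes 3A shMITF, 41467 for 501Mel shSCR2 and shMITF, and 42224 for the remaining groups. Hermes 3A shMITF against shSCR, shSCR2 against shSCR1 and the pooled scramble controls therefore join groups with unequal numbers. The effect of this on their values was not tested. The submitters' processing notes name CASAVA 1.8, TopHat 1.4.1, Bowtie 0.12.7 and the hg19 build, whereas the counting program and its strand setting are not given in the sources used here. Libraries were made from RNA depleted of ribosomal RNA, and the study's methods state triplicate or more for its experiments without saying whether the sequenced replicates were separate infections, so p-values measure the spread between these samples, which may be technical.

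Each comparison was fitted with its own groups alone in edgeR 4.0.16 (R 4.3.3): TMM, filterByExpr, robust glmQLFit and glmQLFTest, Benjamini-Hochberg adjustment over all genes tested. Genes were called at an adjusted p under 0.05 and an absolute log2 fold change over 1. CPM used TMM factors over all 19 samples, except for the marker levels and the limits for libraries without counts, which used total counts alone. Gene positions, exon lengths and overlaps came from GENCODE release 29 (GRCh38), promoters from RefSeq (GRCh38.p14), and neither was used to place reads. The code was tested on simulated data. Replicates differed by more than counting noise. Alternatives were DESeq2 1.42.0, plain library sizes, no count filter, a minimum of 10 counts in each sample, a block for the replicate number, one fit per cell line, pooled 501Mel scramble groups and leaving out each replicate. Tables and figures were made in Python 3.11.15 (pandas 2.3.3, numpy 2.4.6, matplotlib 3.10.9).

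The members and the 6 lists were chosen with earlier results of these data known. From each list and knockdown comparison the text names the called genes with the largest rise and fall whose mean reached 100 counts in the higher group and did not overlap between groups. The 3 genes most like a member were sought for members at 1 CPM or more on average. TAGLN, REEP6, AC023024.1, AC023024.2 and AP000892.3 were named for their overlap with members. In Hermes 3A cells PCSK1N, PACS1 with shMITF, and PENK, CHGB and SCG2 with shBRG1 were named after their values were seen, as was PTHLH. GGGCGG and TATAAA were added to the motifs after the promoter sequences were seen.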

Additional observations from a re-analysis of the deposited data

Results flagged for a closer look

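PCSK6 and PCSK4 went in opposite directions in the 2 lines upon shBRG1, with every library of one line lower than its controls and every library of the other higher. For PCSK6 the log2 fold change was -1.10 in 501Mel cells and 0.18 in Hermes 3A cells. For PCSK4 it was -2.39 in 501Mel cells and 0.22 in Hermes 3A cells. Such separation of libraries was common, since with shBRG1 37.4% of all genes tested were lower in every library in 501Mel cells and 30.1% were higher in every library in Hermes 3A cells. The difference between the lines was not tested for either gene. In 501Mel cells the PCSK4 value rests on the shSCR1 control, which lay well above shSCR2.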

How the results depend on the processing

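The FURIN log2 fold change kept its direction in every alternative run for the 4 knockdown comparisons. Its calls with shBRG1 in both lines and with shMITF in Hermes 3A cells were kept in all of them, with replicates left out at 2.22 to 2.29, 2.07 to 2.20 and 1.51 to 1.68. With shMITF in 501Mel cells it was 1.60 and not called with the scramble groups pooled, and 0.97 to 1.19 with 1 library left out. Between shSCR2 and shSCR1 it fell under the limit of 1 with library sizes (0.89), with a minimum of 10 counts in each sample (0.92) and with the replicate block (0.99), and ran from 0.95 to 1.13 with 1 library left out. Pooling reversed PCSK4 (-0.61) and ITGA3 (-0.31) with shMITF in 501Mel cells.

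With that minimum, which leaves fewer genes tested, 5183 genes were called with shBRG1 in 501Mel cells (8024 in the main test), 1056 in Hermes 3A cells (1594) and 3558 between shSCR2 and shSCR1 (6282). With shMITF in 501Mel cells 1592 genes were called, 2518 when the whole line was fitted together, 575 with pooled controls and 956 to 2091 with 1 library left out, the lowest without shMITF replicate 2. In Hermes 3A cells shMITF gave 1220 calls and 590 to 1559 with 1 library left out, with 677, 616 and 590 when shSCR replicate 1, 2 or 3 was dropped. The cause was not tested. Library sizes in place of TMM moved the median of all genes with shBRG1 in 501Mel cells from 0.05 to 0.40 and the calls from 4453 higher and 3571 lower to 6192 and 2398. In Hermes 3A cells shMITF calls went from 553 higher and 667 lower to 686 and 540, and shBRG1 calls from 996 and 598 to 1231 and 467.

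The replicate numbers are shared between groups, but same-numbered samples correlated at 0.05 or less in their deviations, apart from 0.13 with only 2 pairs (shMITF and shSCR2), so they were not taken as pairs. With the replicate block 8014, 1857, 1613, 1213 and 6127 genes were called in the 4 knockdown comparisons and between the scramble controls. Members with few counts, PCSK5, PCSK1 and PCSK2 in most groups, are limited by depth.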
